A study of Homo sapiens with 15 samples.

Results

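BRCA2 is a single gene of chromosome 13, and it was followed here through the 94 windows, of 3439652 in the count table, that have their midpoint in the gene body (GRCh37, chr13:32889617-32973809). The reads came from Pt-exo-seq, in which exonucleases digest sheared DNA until a platinum adduct stops them, so that reads mark adducts and untreated libraries give the background of the assay. One patient with high-grade serous ovarian cancer gave both cell lines, PEO1 before clinical resistance to platinum (labelled sensitive) and PEO4 after it (labelled resistant). The 5 groups held 3 libraries each: untreated PEO1, PEO1 given 16 µM cisplatin, untreated PEO4, PEO4 given 16 µM cisplatin and PEO4 given 32 µM cisplatin. The doses at which the lines carry similar amounts of platinum on their DNA are 16 µM in PEO1 and 32 µM in PEO4, and cells at these doses were exposed for 5 h. All values are reads on genomic DNA, not expression of the gene.

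BRCA2 acts in homologous recombination, the repair of DNA breaks with an intact copy as the template, and also protects stalled replication forks. Cisplatin joins neighbouring purines, most often 2 guanines, and also forms crosslinks between strands. Cells that lack BRCA2 are poor at repairing the breaks that form when platinum crosslinks are processed. Inherited BRCA2 mutations raise the risk of breast and ovarian cancer. PEO1 is known for a truncating BRCA2 mutation and PEO4 for a change that reverses the truncation, but counts per window hold no base calls and show neither.

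Sequence is shown for the start of the gene, an exon 11 window and an intronic window. The first runs from the start of ZAR1L, which is read in the other direction, to the next start of a BRCA2 transcript (chr13:32889501-32889641). It lies inside the annotated extent of BRCA2 because 1 transcript starts further upstream. Most of it precedes the first window counted for the gene body (chr13:32889601-32890600). The others are the middle of the exon 11 window with the lowest mean count (chr13:32911601-32911800) and of the intronic window with the highest (chr13:32945801-32946000). All are the plus strand of GRCh37, 5′ to 3′, and capitals mark runs of GG or CC, the places where guanines stand side by side on either strand.
Start of BRCA2: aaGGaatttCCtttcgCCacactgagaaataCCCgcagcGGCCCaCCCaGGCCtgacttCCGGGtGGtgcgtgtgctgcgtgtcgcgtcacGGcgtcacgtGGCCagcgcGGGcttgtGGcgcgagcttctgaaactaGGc
Exon 11: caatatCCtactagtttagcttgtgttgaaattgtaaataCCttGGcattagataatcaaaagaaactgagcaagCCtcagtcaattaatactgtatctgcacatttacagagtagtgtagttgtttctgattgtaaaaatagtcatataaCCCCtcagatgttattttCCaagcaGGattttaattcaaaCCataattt
Intron: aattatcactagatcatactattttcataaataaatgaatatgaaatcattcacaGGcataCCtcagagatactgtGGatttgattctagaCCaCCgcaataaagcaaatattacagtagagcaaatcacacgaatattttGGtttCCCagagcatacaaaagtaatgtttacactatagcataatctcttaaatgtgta
The start was the richest in such steps, with 16.3 per 100 bases and a GC content of 63.8%. The exon 11 stretch had 5.0 per 100 bases and the intronic stretch 4.0, so the stretches from the lowest and the highest window were close in this respect.

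The windows are 1 kb long and start every 900 bp, so neighbours share some bases and a read there can be counted in both. Library totals without chromosome Y ran from 27.7 M to 56.6 M reads, with a median of 33.1 M. The BRCA2 gene body held 464 to 905 reads in a library, which sets a counting error of 3.32% to 4.64% for each library. Counts were scaled to the median library unless stated otherwise. The labels do not say that replicates came from separate cultures, so p-values measure the spread between these libraries, which may be technical.

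BRCA2 was sparsely covered in both lines. Its mean scaled count over the 15 libraries was 589, against a median of 1036 over the genome's bins of the same length, and 20.3% of those bins lay below it. Among the 6377 bins within 1 percentage point of its GC content the median was 1016. On chromosome 13 the order was different, since the median of the 1139 bins there was 538 and 89.6% of them lay below BRCA2. The whole locus, the gene with about 1 Mb on each side (2334 windows), was above the rest of the chromosome in reads per window in 13 of 15 libraries, and the ratio ran from 0.973 to 1.09 over the 15. A lower number of copies and a lower yield of reads per copy cannot be told apart in these counts.

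The scaled count of the gene body was highest in PEO1 at 16 µM and lowest in PEO4 at 16 µM. In untreated PEO1 the libraries held 513, 600 and 619 reads, with a mean of 577 ± 56.7 (SD, n = 3). In PEO1 at 16 µM they held 626, 661 and 672, with a mean of 653 ± 23.9, all above the untreated libraries. In untreated PEO4 they held 641, 616 and 599, with a mean of 619 ± 21.1. PEO4 at 16 µM stood apart below, with 517, 492 and 507 and a mean of 505 ± 12.5. PEO4 at 32 µM held 533, 614 and 626, with a mean of 591 ± 50.5, and overlapped the untreated libraries. At 16 µM all 3 PEO1 libraries thus lay above their untreated mean and all 3 PEO4 libraries below theirs. How many other bins of the genome show this pattern was not computed.

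**Figure D1:**
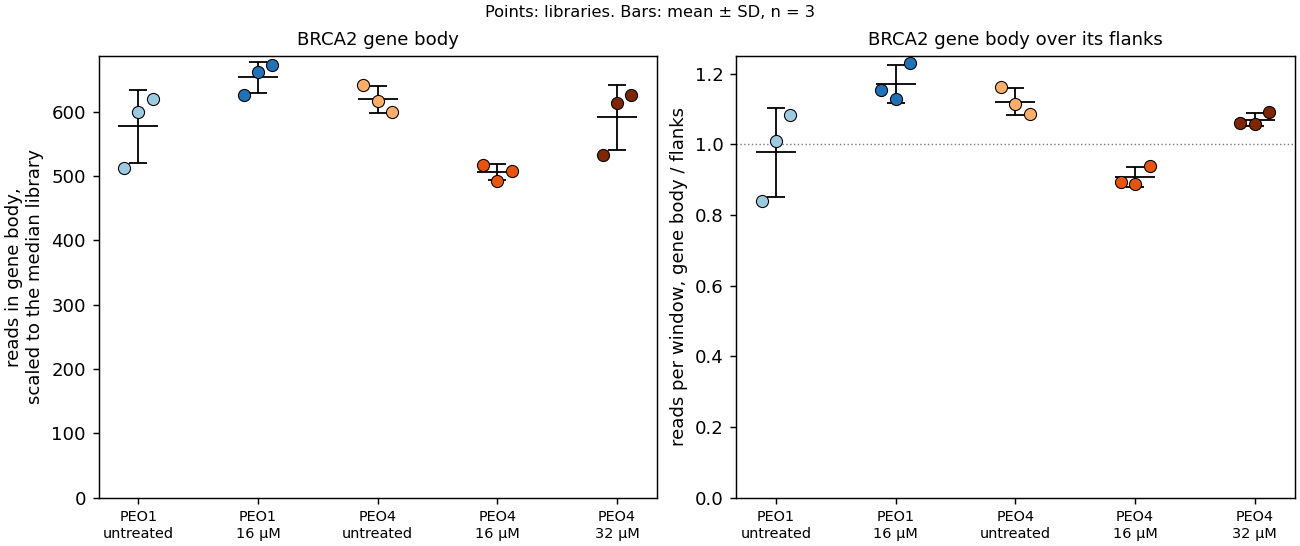
Left, reads in the BRCA2 gene body scaled to the median library, and right, reads per window in the gene body over those in its flanks, for the 15 libraries (points) with the mean and SD of each group (n = 3). The 3 PEO4 libraries at 16 µM lie lowest among PEO4 on both scales, from 492 to 517 reads on the left.

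The ratio of the gene body to its own flanks needs no scaling between libraries, because both counts come from the same library. The flanks are the other 2240 windows of the locus. In untreated PEO1 the ratio was 0.840, 1.01 and 1.08, and in PEO1 at 16 µM it was 1.15, 1.13 and 1.23. In untreated PEO4 it was 1.16, 1.12 and 1.09. In PEO4 at 16 µM it was 0.893, 0.887 and 0.939, and in PEO4 at 32 µM it was 1.06, 1.06 and 1.09. The gene was thus below its flanks in 4 of 15 libraries, which were the 3 of PEO4 at 16 µM and replicate 1 of untreated PEO1.

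On the log2 scale the gene-to-flank ratio of PEO1 was 0.27 higher at 16 µM than without drug, and that of PEO4 at 16 µM differed from untreated by -0.31. In both cases the groups did not overlap, and the exact two-sided permutation test gave p = 0.1, the smallest value that 3 libraries against 3 allow, so no such test could pass 0.05. The difference between these responses, PEO4 minus PEO1, was -0.57 (exact permutation p = 0.1). The test of a difference of response exchanges treated libraries after the untreated mean of each line is subtracted, so the spread of the untreated libraries does not enter its p. PEO4 at 32 µM differed from untreated PEO4 by -0.07 (exact permutation p = 0.2), and its response minus that of PEO1 at 16 µM was -0.33 (exact permutation p = 0.1). Between untreated lines the ratio was 0.20 higher in PEO4 (exact permutation p = 0.1). Over the 6 comparisons the Benjamini-Hochberg adjusted values of these exact tests were 0.12, except 0.2 for PEO4 at 32 µM. Untreated PEO1 replicate 1 carried part of the first and last of these values: without it the ratio differed by 0.16 for PEO1 at 16 µM and by 0.10 between untreated lines. Without untreated PEO4 replicate 1 the difference for PEO4 at 32 µM was -0.0395.

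The same gene body was tested beside every other stretch of the genome of its length, 33430 bins in all, with the quasi-likelihood test of edgeR. BRCA2 passed an adjusted p of 0.05 in none of 7 comparisons. Between untreated lines it was 0.15 ± 0.11 (log2, SE) higher in PEO4 (adjusted p = 0.413), where 24.9% of all bins passed. For PEO1 at 16 µM it was 0.19 ± 0.11 (edgeR, adjusted p = 0.999), for PEO4 at 16 µM -0.31 ± 0.11 (adjusted p = 0.995), and for PEO4 at 32 µM -0.08 ± 0.11 (adjusted p = 0.759). Without untreated PEO1 replicate 1 the first of these became 0.06 and the second 0.10, and without PEO4 at 32 µM replicate 1 the last became -0.02. PEO4 at 32 µM against 16 µM gave 0.23 ± 0.11 (edgeR, adjusted p = 1.0). In the 4 comparisons that involve cisplatin, and in both differences of response, 0% of all bins passed with edgeR. Unadjusted p-values under 0.05 went to 1135, 804, 2999 and 1111 bins in the 4, in the order given. BRCA2 was among the 804 for PEO4 at 16 µM (edgeR, unadjusted p = 0.012) and not in the other sets. DESeq2 called 1 bin for PEO4 at 32 µM and 0 in the others.

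The largest value for BRCA2 was the difference of response at equal dose, -0.50 ± 0.16 for PEO4 minus PEO1 at 16 µM, with a 95% interval from -0.83 to -0.17 (edgeR, unadjusted p = 0.00506, adjusted p = 0.945). In size it lay above 97.4% of the 33430 bins, of which 1399 had an unadjusted p under 0.05. At the doses matched for platinum load the difference of response was -0.27 ± 0.16, with an interval from -0.60 to 0.06 (edgeR, adjusted p = 0.624), and 2518 bins had an unadjusted p under 0.05. DESeq2 called 0 bins in either. Without untreated PEO1 replicate 1 the differences of response were -0.41 at equal dose and -0.18 at matched load.

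These fitted values depend on what the libraries are scaled to. Scaled to reads in protein-coding gene bodies in place of the whole genome, the same 94 windows gave 0.02 between untreated lines, 0.14 for PEO1 at 16 µM, -0.24 for PEO4 at 16 µM and 0.02 for PEO4 at 32 µM, where the sign turned. The difference of response became -0.38 at equal dose and -0.13 at matched load. The change of scale alone moved BRCA2 by -0.13 between untreated lines and, in the differences of response, by 0.12 at equal dose and 0.15 at matched load. An offset for the GC trend of each library moved BRCA2 the other way, to 0.26 between untreated lines and, in the differences of response, to -0.57 at equal dose and -0.37 at matched load, and no adjusted p fell under 0.05.

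**Figure D2:**
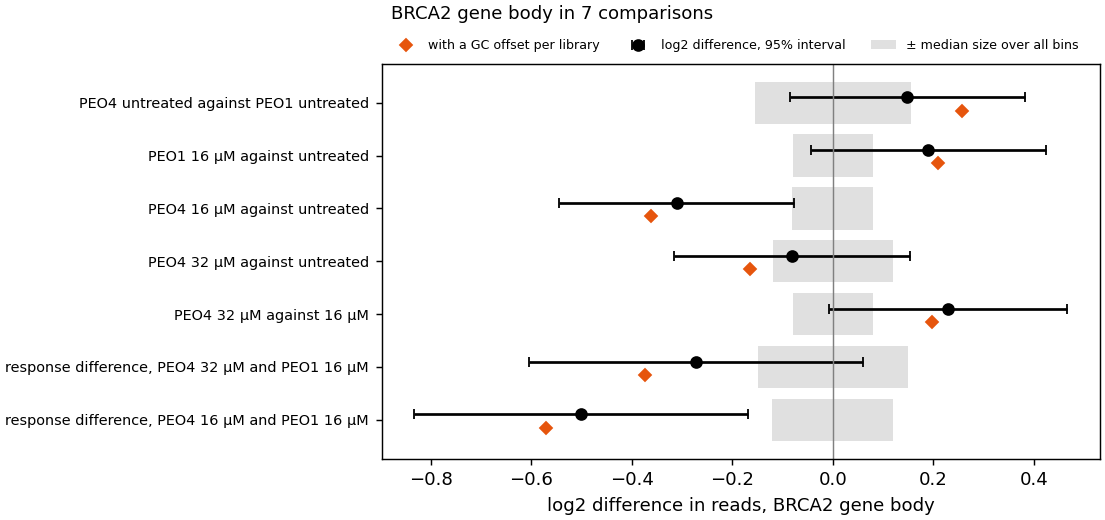
Log2 difference in reads of the BRCA2 gene body in 7 comparisons (black points, 95% intervals from edgeR, 15 libraries), the same with a GC offset (orange), and the median size over all bins (grey). The interval for the equal-dose difference of response runs from -0.83 to -0.17, and no comparison passed the adjusted limit.

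The 5 bins of the gene's length on each side lay on 1 side of BRCA2 in 6 of 7 comparisons. The comparisons share groups of libraries, so they are not separate results. How often other bins of the genome stand so among their neighbours was not computed. For PEO4 at 16 µM these 10 neighbours lay between -0.13 and 0.26 on the log2 scale, all above BRCA2. For PEO1 at 16 µM they lay between -0.21 and 0.07, all below it. In the difference of response at equal dose they ran from -0.09 to 0.23, against -0.50 for BRCA2. For PEO4 at 32 µM BRCA2 stood in the middle, with 5 neighbours above it and 5 below.

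**Figure D3:**
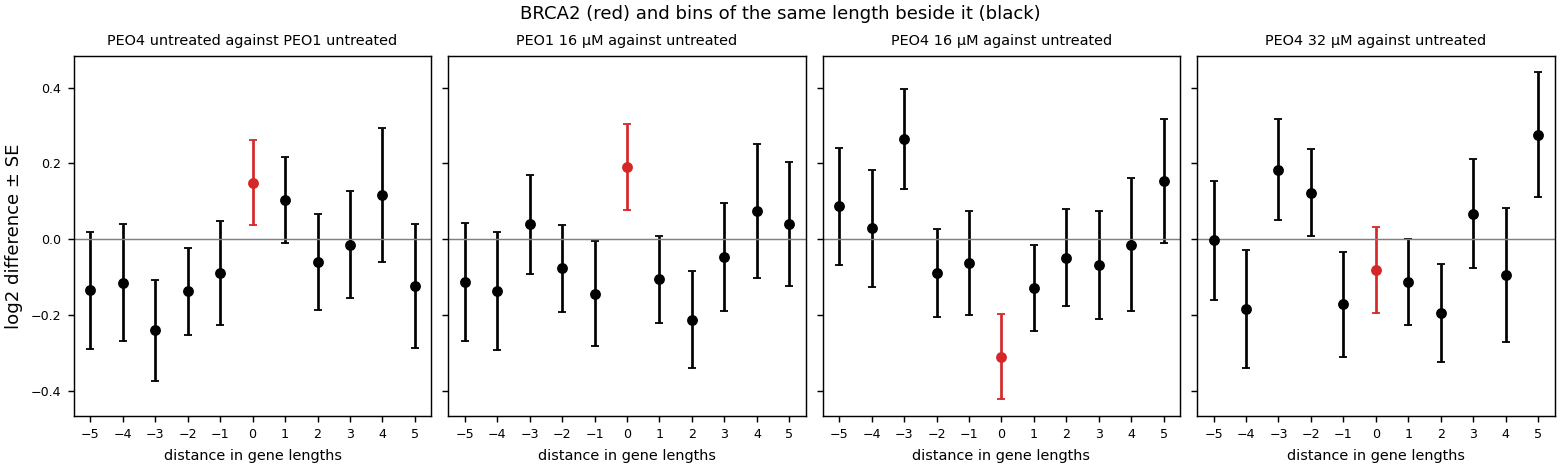
Log2 difference ± SE (edgeR) of BRCA2 (red) and of 5 bins of the same length on each side (black), by distance in gene lengths, in 4 comparisons. BRCA2 is the lowest of the 11 bins for PEO4 at 16 µM and the highest for PEO1 at 16 µM.

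For the wider locus the exact tests could not pass 0.05, since their smallest p is 0.1. Relative to the rest of chromosome 13 the locus differed by -0.06 (log2) in PEO1 at 16 µM and by -0.03 in PEO4 at 16 µM. It differed by -0.08 in PEO4 at 32 µM, where the groups did not overlap (exact permutation p = 0.1, adjusted 0.6). These became -0.0280 without PEO1 at 16 µM replicate 3, -0.0467 without PEO4 at 16 µM replicate 2 and -0.0471 without PEO4 at 32 µM replicate 1. Chromosome 13 took 1.75% to 1.94% of the reads of a library, and its share in untreated PEO4 minus that in untreated PEO1 was -0.09 (log2, exact permutation p = 0.1, adjusted 0.6). Of the 21 bins of 100 kb in the locus, 1 passed an adjusted p of 0.05 between untreated lines with edgeR, against 25.2% of all such bins. It was lower in PEO4, at -0.38 ± 0.11 (edgeR, adjusted p = 0.0159) and lay at chr13:33800001-33900000, away from BRCA2, and it no longer passed without untreated PEO1 replicate 3 or untreated PEO4 replicate 3. None passed in the other 6 comparisons, where 0% of all 100 kb bins did. At an unadjusted p under 0.05 the locus had 3 bins between untreated lines (32.3% of all bins), 2 for PEO1 at 16 µM (3.12%), 1 for PEO4 at 16 µM (2.16%), 1 for PEO4 at 32 µM (9.27%) and 1 for 32 against 16 µM (2.96%). The differences of response had 1 bin at matched load (7.8%) and 2 at equal dose (4.24%). DESeq2 called 1 locus bin between untreated lines and 0 in the rest.

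**Figure D4:**
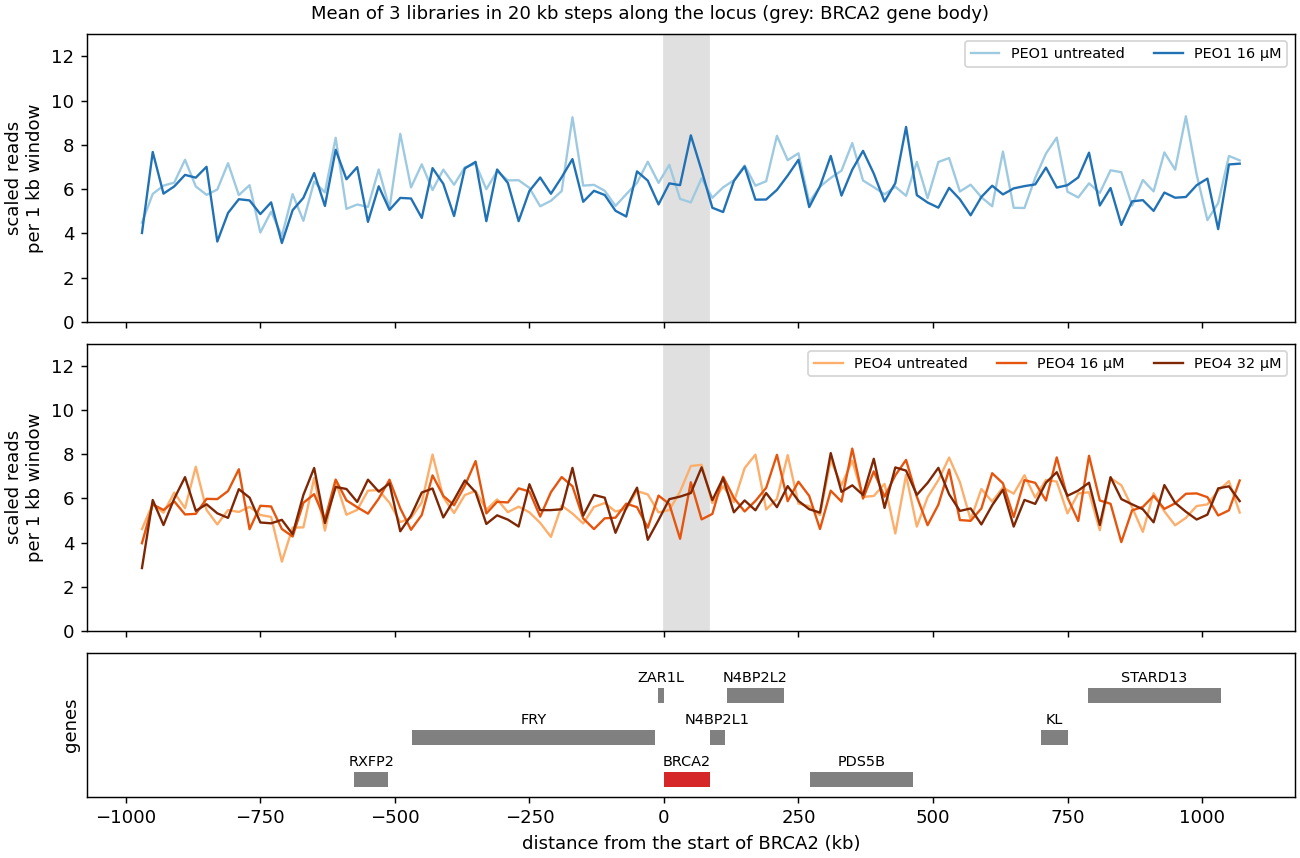
Scaled reads per 1 kb window in 20 kb steps across the locus (mean of 3 libraries), by distance in kb from the start of BRCA2, with the protein-coding genes below. The groups cross one another along the locus, and inside the BRCA2 gene body (grey) the step at 50 kb holds 8.43 reads per window in PEO1 at 16 µM against 5.39 in untreated PEO1, and the step at 30 kb 4.18 in PEO4 at 16 µM against 6.31 in untreated PEO4.

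Within the gene, single windows were sparse. A window held 6.72 reads per library on average, 8 of 94 windows had a read in every library, and 67 passed the mean count of 5 needed for the test. None of the 67 passed an adjusted p of 0.05 with edgeR in any comparison, where 6 of all 2757680 windows (0.000218%) did so between untreated lines and 0 elsewhere. At an unadjusted p under 0.05 BRCA2 had 2 windows between untreated lines (4.6% of all windows), 2 for PEO1 at 16 µM (3.75%), 2 for PEO4 at 16 µM (1.79%), 0 for PEO4 at 32 µM (3.04%) and 1 for 32 against 16 µM (2.94%). Both differences of response had 2 (3.88% at matched load and 3.1% at equal dose). Since 2 of 67 windows is 2.99%, these shares were near the background.

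The windows with the smallest p show how uneven the counts were. The window at chr13:32892301-32893300, which overlaps exon 3, held 35, 18 and 17 reads in untreated PEO1 and 5, 7 and 2 in untreated PEO4, a difference of -2.58 ± 1.09 (edgeR, adjusted p = 0.954). The window at chr13:32943601-32944600, over exon 19, held 0, 0 and 0 reads in PEO1 at 16 µM and 2, 5 and 6 in untreated PEO1. It held 10, 12 and 8 in PEO4 at 32 µM and 8, 0 and 12 in untreated PEO4 (edgeR, adjusted p = 1.0 for the difference of response). An intronic window at chr13:32922001-32923000 held 3, 31 and 0 reads in PEO1 at 16 µM. Libraries of 1 group thus ranged from 0 to 31 in the same window.

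Window profiles were weakly correlated between libraries, also within a group. The median Pearson correlation over the 94 windows was 0.061 between the 15 pairs of libraries of 1 group, 0.090 between 36 pairs that shared the line but not the group, and 0.080 between 54 pairs across lines. Across the 94 windows, which share libraries, the mean count had a Pearson r of -0.014 with GC content and of 0.044 with GG or CC steps. The highest window, in the intron shown above, averaged 18.2 scaled reads but held 37, 3 and 8 reads in untreated PEO1 and 10, 1 and 27 in PEO4 at 32 µM. The windows at the start and the end of the gene averaged 4.58 and 4.02.

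**Figure D5:**
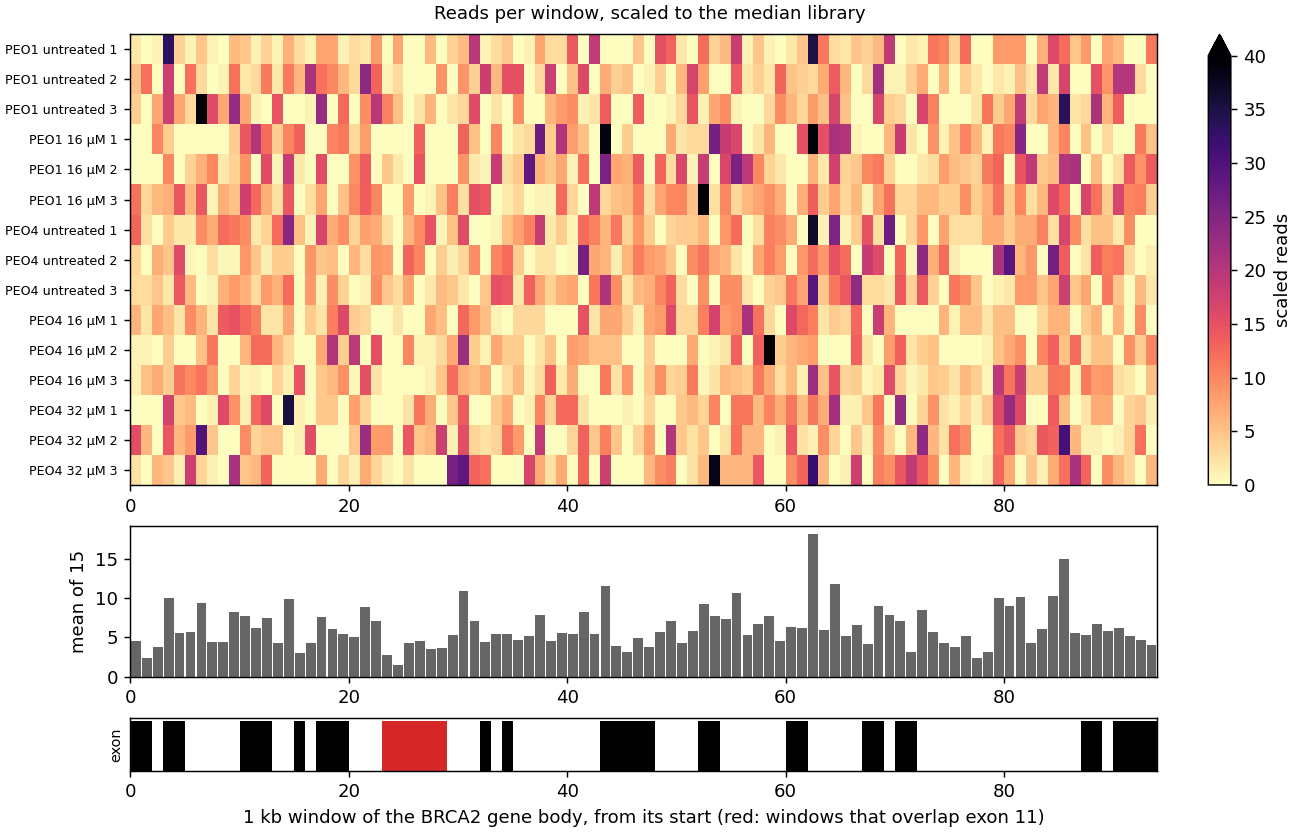
Scaled reads in each of the 94 windows of the BRCA2 gene body (columns) in each library (rows), the mean of the 15 libraries below, and windows that overlap an exon (black; red for exon 11). High windows appear in single libraries rather than in whole groups, and the exon 11 windows are low in most rows.

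Exon 11, the longest exon with 4932 bp, encodes the BRC repeats of the protein. Its 6 windows were below the rest of the gene in 14 of 15 libraries, by a ratio of reads per window from 0.0840 to 0.894. The exception was PEO4 at 32 µM replicate 2, with a ratio of 1.34. Of the 90 pairs of an exon 11 window and a library, 45.6% were at 0, against 21.3% elsewhere in the gene. Exon 11 also had less GC (33.6% against 38.3%) and fewer GG or CC steps (5.55 against 8.91 per 100 bases), and the part of these in its low count was not tested. Exon windows as a whole were below intron windows in 12 of 15 libraries, and no comparison moved that ratio beyond the overlap of the groups (exact permutation p from 0.4 to 1.0).

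Along the gene, cut into 5 equal stretches after the values were seen, the difference in PEO1 at 16 µM was largest in the middle stretch (33.7 to 50.5 kb from the start), from 107 ± 14.5 to 173 ± 14.7 scaled reads (SD, n = 3), with no overlap of the groups. In PEO4 at 16 µM the next stretch went from 164 ± 9.40 to 125 ± 9.25, also without overlap. All other stretches overlapped between treated and untreated libraries of both lines. In PEO1 at 16 µM the first and second stretches were lower than untreated, at -0.27 and -0.05 (log2). How often stretches elsewhere in the genome show no overlap was not computed.

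None of the 8 other protein-coding genes of the locus (RXFP2, FRY, ZAR1L, N4BP2L1, N4BP2L2, PDS5B, KL and STARD13) passed an adjusted p of 0.05 with edgeR in a fit of 17236 gene bodies, where 22.4% passed between untreated lines, 0.0058% for PEO1 at 16 µM and 0% elsewhere. At an unadjusted p under 0.05 there were 2 of 8 between untreated lines (32.8% of all genes), 1 for PEO1 at 16 µM (5.63%), 0 for PEO4 at 16 µM (2.62%), 1 for PEO4 at 32 µM (6.88%) and 0 for 32 against 16 µM (2.38%). Each difference of response had 1 (8.07% at matched load and 6.99% at equal dose). STARD13 came nearest, at -0.27 ± 0.10 between untreated lines (edgeR, adjusted p = 0.0531). It is near the limit, and 1 neighbour passed when PEO1 at 16 µM replicate 1, PEO4 at 16 µM replicate 1 or 2, or PEO4 at 32 µM replicate 1 was left out.

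BRCA2 works with proteins whose own genes lie elsewhere, and several of these passed the test between the untreated lines. Of 18 genes for BRCA2 partners and homologous recombination, 5 were higher in PEO4 (13.3% of all genes were) and 2 were lower (9.13% of all genes were). HSF2BP, which binds BRCA2, was higher by 0.82 ± 0.09 (edgeR, adjusted p = 1.79e-07), RAD51C, which acts in homologous recombination, by 1.15 ± 0.13 (edgeR, adjusted p = 4.67e-07) and RAD52, which anneals single strands, by 0.91 ± 0.12 (edgeR, adjusted p = 2.08e-06). BRCA1 was at -0.03 ± 0.09 and PALB2, which links BRCA1 to BRCA2, at -0.15 ± 0.14, and neither passed. Of 14 Fanconi genes tested, out of 15 listed, 2 were higher and 2 lower, among them FANCB at -1.21 ± 0.11 (edgeR, adjusted p = 1.68e-08) and FANCE at 1.01 ± 0.23 (edgeR, adjusted p = 0.00166). Without untreated PEO4 replicate 3, 4 recombination genes passed in place of 7, and 2 Fanconi genes passed without either replicate 1 or replicate 3 of untreated PEO4, in place of 4. The median over the recombination genes was -0.05 and over the Fanconi genes -0.12, against -0.0027 over all genes. Of 8 genes elsewhere on chromosome 13, RB1 and ERCC5 among them, none passed between untreated lines (1 without PEO1 at 16 µM replicate 1), where 22.4% of all genes did, and 2 had an unadjusted p under 0.05, as 32.8% of all genes had. In the 6 comparisons with cisplatin none of the genes of the 3 lists passed with edgeR, and 0 to 3 of a list had an unadjusted p under 0.05, where 2.38% to 8.07% of all genes did. The count of 3 was that of the 14 Fanconi genes, for PEO4 at 32 µM (6.88% of all genes) and for the difference of response at matched load (8.07%).

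The gene bodies whose scaled counts followed BRCA2 most closely over the 15 libraries were, outside chromosome 13, FIGNL1 (Pearson r = 0.815), RTCB (0.813), ACOX2 (0.755), CDPF1 (0.734) and TVP23B (0.733), where the median over 17235 genes was 0.019. On chromosome 13 outside the locus the highest were RAP2A (0.56), EXOSC8 (0.558), IRS2 (0.546), MYCBP2 (0.537) and PCDH17 (0.524). The genes of the locus itself ranged from -0.342 for KL to 0.31 for PDS5B. The named genes were picked as the highest of 17235 correlations over 15 points, and how high unrelated genes would reach was not computed. The points share libraries and depth, and the values are a description.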

How the data were processed

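Single-end Pt-exo-seq reads of 15 libraries were trimmed with BBDuk, aligned to hg19 with Bowtie2, cleared of blacklisted regions and deduplicated by the authors, who deposited raw read counts in 1 kb windows moved by 900 bp. Duplicates were removed with Picard, without molecular identifiers, so counting errors cover counting only. The ends of the 23 chromosomes used matched GRCh37. The study's filter on ATAC-seq depth was not applied here, and 0 sample columns were left unused.

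Windows were assigned by midpoint to bins of the gene's length, 100 kb bins and protein-coding gene bodies (GENCODE release 44 lifted to GRCh37). Chromosome Y was left out. Bins and genes with a mean count of at least 50 and windows with a mean of at least 5 entered 1 edgeR 4.0.16 quasi-likelihood fit of 15 libraries in 5 groups (R 4.3.3, TMM factors, Benjamini-Hochberg over all features). Ratios per library were compared by exact permutation. Alternatives were DESeq2 1.42.0, the study's kind of log2-ratio test in limma 3.58.1 with a prior count of 2, other scalings, a GC offset, a replicate block and leaving out libraries. The bin fit was tested on simulated data. Named genes were BRCA2, the genes of the locus, list members that passed (at most 4 per list and comparison) and the 5 closest correlates. Named windows were those at the start, end, longest exon, highest and lowest mean, and smallest p. Members and lists were chosen with earlier results of these data known. PALB2, BRCA1, RB1, ERCC5, the 5 stretches of the gene and the scaling to gene bodies were chosen after values were seen. Not every list member that passed is reported here by name.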

Additional observations from a re-analysis of the deposited data

Results flagged for a closer look

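At 16 µM all 3 libraries of PEO1 were above their untreated mean in the BRCA2 gene body and all 3 of PEO4 were below theirs. The share of other bins with this pattern was not computed, so it cannot be called particular to BRCA2. Neither response passed the adjusted limit: PEO1 was at 0.19 on the log2 scale (edgeR, adjusted p = 0.999), or 0.10 without untreated PEO1 replicate 1, and PEO4 was at -0.31 (edgeR, adjusted p = 0.995). The difference of response, PEO4 minus PEO1, was -0.50 (edgeR, adjusted p = 0.945 over 33430 bins), so the test of the difference itself did not pass either. It was -0.38 when libraries were scaled to reads in gene bodies and -0.41 without untreated PEO1 replicate 1.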

How the results depend on the processing

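Of 1085 recomputed values, 1042 were the same as in the main setting. For log2 differences this means the same sign and side of the 0.05 limit, for counts an equal or similar number. Exact tests could not fall under 0.05, so their ratios could change only in sign. Counts of features that passed with cisplatin were 0, where 0% to 0.0058% of all did, so their agreement could hardly fail. No alternative brought BRCA2 past an adjusted p of 0.05. The gene body kept its sign in 183 of 184 values over 7 comparisons. The exception was PEO4 at 32 µM, 0.02 (0.0168) when scaled to reads in gene bodies, an alternative chosen after seeing the data. The flank ratio for PEO4 at 32 µM turned to 0.065 (log2) with flanks of 1 gene length and to 0.0175 with the median over windows. With medians the locus ratio turned to 0.0741 between untreated lines, to 0.195 for PEO1 at 16 µM and to -0.38 for the equal-dose difference of response, the chromosome 13 level for PEO4 at 32 µM to -0.21, and the exon ratio for PEO4 at 16 µM to 0.13. The median could not give the exon ratio for the comparisons with PEO1 at 16 µM, where 1 library had a median of 0. The GC offset gave 2 locus bins and 2 Fanconi genes between untreated lines, in place of 1 and 4. Windows with an unadjusted p under 0.05 numbered 1 between untreated lines with DESeq2 size factors, and without the filter 2 for PEO4 at 32 against 16 µM and 4 for the equal-dose difference of response. The causes were not tested.

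Replicate numbers did not pair the libraries: deviations of libraries with the same number correlated from -0.654 to 0.604, and 5 of 15 libraries correlated best with their own number. With the replicate block BRCA2 was at 0.15 between untreated lines, 0.19 for PEO1 at 16 µM, -0.31 and -0.08 for PEO4 at 16 and 32 µM, 0.23 between these doses, and -0.28 and -0.51 for the matched-load and equal-dose differences of response, and 1 window had an unadjusted p under 0.05 between untreated lines in place of 2. The paired sign-flip test, whose smallest p is 0.25, could not pass 0.05.

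Leaving out each library in turn kept the sign of the BRCA2 gene body and of its ratio to the flanks in every comparison. The gene body ran from 0.06 to 0.21 between untreated lines, 0.10 to 0.25 for PEO1 at 16 µM, -0.32 to -0.28 for PEO4 at 16 µM, -0.12 to -0.02 for PEO4 at 32 µM, and -0.56 to -0.41 for the equal-dose and -0.33 to -0.18 for the matched-load difference of response. The flank ratio for PEO4 at 32 µM ran from -0.0890 to -0.0395. The locus ratio ran from -0.0776 to -0.0280 for PEO1 at 16 µM, -0.0467 to -0.0229 for PEO4 at 16 µM and -0.0972 to -0.0471 for PEO4 at 32 µM, and from -0.0222 to 0.0157 between untreated lines, -0.0481 to 0.01 for the matched-load and -0.0030 to 0.0466 for the equal-dose difference of response. The chromosome 13 share ran from -0.0327 to 0.0105 for PEO1 at 16 µM and -0.0024 to 0.0517 for PEO4 at 16 µM. The exon ratio ran from -0.132 to 0.2723 between untreated lines, -0.0157 to 0.3886 for PEO1 at 16 µM, -0.2429 to 0.1909 for PEO4 at 16 µM, -0.1373 to 0.0833 for PEO4 at 32 µM and -0.3976 to 0.0382 for the equal-dose difference of response. Between untreated lines the counts that passed ran from 0 to 1 locus bins, 4 to 7 recombination genes, 2 to 5 Fanconi genes, 0 to 1 neighbours and 0 to 1 genes elsewhere on chromosome 13. Single windows were not refitted with a library left out, and at 6.72 reads on average they can show little.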
